A study of Mus musculus with 8 samples.

Results

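The colony-stimulating factor receptor genes Csf1r, Csf2ra, Csf2rb, Csf2rb2 and Csf3r, the related receptor gene Flt3 and the ligand gene Csf1 were followed through the immune cells of E0771 mammary tumors. These 7 genes, of 32285 in the count tables, were taken by their symbols and not by a cutoff on a measured value. The choice was made with earlier results of these data known. The tables held single-cell counts of CD45+ cells sorted from tumors of 8 mice on day 18 after implantation. E0771 is a mesenchymal-like mouse mammary carcinoma line, grown in the mammary fat pad of female mice. Parental E0771, called naive in the labels, was implanted in 2 of the mice, E0771-Res1 in 3 and E0771-Res2 in 3. Each resistant line was derived from tumors that relapsed after paclitaxel plus anti–PD-1 antibody, so each stood for 1 derivation, and the tumors shared the implantation site and the CD45+ sort. Whether the sequenced mice themselves received drug is not given in the sources used here, and neither is their age.

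Of 11430 deposited cells, 10605 were kept, with 5589 to 8160 median unique molecular identifiers (UMIs, the counted molecules) per mouse. No barcode was shared between mice. Marker gates that contain none of the 7 genes gave 3868 monocytes, 2286 macrophages with at least 10 UMIs of C1qa, 508 dendritic cells and 554 lymphoid cells. The remaining cells were 1037 between monocyte and macrophage, 20 neutrophils, 3 basophil-like or mast-like cells, 1 tumor or stromal cell and 2328 unassigned cells, or 22.0% of those kept. Most markers outside the gates were highest in the class they were listed for. C1qb was at 6385.5 CPM (UMIs scaled to a common total) in macrophages against 274 in monocytes. It is a C1q gene like C1qa, which both of these gates used, so it is not an independent check. Adgre1 was at 345 CPM in macrophages against 129 in monocytes, and Mrc1 at 248 against 72.1 CPM. Chil3 was at 1319.5 CPM in monocytes against 104 in macrophages. Zbtb46 was at 41.2 CPM in dendritic cells against 1.53 in monocytes, and Trbc2 at 1298 CPM in lymphoid cells against 16.0 in monocytes. Itgae and Il7r were exceptions. Itgae, listed as dendritic, was at 45.7 CPM in lymphoid cells against 7.32 in dendritic cells. Il7r, listed as lymphoid, was at 118 CPM in lymphoid cells against 132 in monocytes, 166 in macrophages and 176 in dendritic cells. Every listed lymphoid marker was higher in dendritic cells than in monocytes, for example Trbc2 at 122 CPM. The listed monocyte markers lay in dendritic cells between their macrophage and monocyte levels. Plac8, for example, was at 737, 2494 and 4851 CPM in macrophages, dendritic cells and monocytes. What such counts add to the dendritic values was not tested. Every level below is CPM of UMIs summed over the cells of a class in 1 mouse, and it does not tell fewer expressing cells from less RNA per cell.

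Csf1r is the receptor tyrosine kinase for M-CSF, the product of Csf1, and for IL-34, and it sustains monocytes and macrophages. Csf2ra is the ligand-binding chain of the GM-CSF receptor, and Csf2rb is the signalling chain that GM-CSF, IL-3 and IL-5 receptors share. Csf2rb2 is a mouse paralog of Csf2rb that serves the IL-3 receptor, and these chains act through Jak2 and Stat5. Csf3r is the G-CSF receptor of the granulocyte lineage, and Flt3, a kinase related to Csf1r and Kit, drives dendritic cell development in response to Flt3l.

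In the GENCODE M21 annotation of GRCm38, all 7 are protein-coding genes. Hmgxb3 overlaps Csf1r on the opposite strand. Csf1 spans chr3:107741048-107760469 on the minus strand, Csf2ra chr19:61223957-61228429 on the minus strand, Csf3r chr4:126024550-126044440 on the plus strand and Flt3 chr5:147330741-147400489 on the minus strand. Csf2rb at chr15:78325752-78353847 on the plus strand and Csf2rb2 at chr15:78282507-78305721 on the minus strand are neighbors. Their longest transcripts shared 892 words of 50 bases, 18.4% of the words of Csf2rb and 19.0% of those of Csf2rb2, but 0 of 451 words in the last 500 bases, the end that 3′ libraries read.

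The bases upstream of Csf2ra and Flt3 are shown because Csf2ra was read in all 3 myeloid classes and 335 of the 494 Flt3 UMIs in dendritic cells. Both are the 250 bases before the RefSeq transcription start in GRCm38.p6, written 5′ to 3′ on the strand of the gene, from chr19:61228419-61228668 (minus) and chr5:147400490-147400739 (minus). Capitals mark GAGGAA or its reverse complement TTCCTC, the core bound by the myeloid factor PU.1, searched on both strands.
Csf2ra: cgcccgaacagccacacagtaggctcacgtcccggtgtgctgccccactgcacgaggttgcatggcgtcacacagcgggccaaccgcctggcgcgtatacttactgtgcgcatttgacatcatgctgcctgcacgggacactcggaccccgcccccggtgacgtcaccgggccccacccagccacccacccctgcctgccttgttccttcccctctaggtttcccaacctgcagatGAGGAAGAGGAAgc
Flt3: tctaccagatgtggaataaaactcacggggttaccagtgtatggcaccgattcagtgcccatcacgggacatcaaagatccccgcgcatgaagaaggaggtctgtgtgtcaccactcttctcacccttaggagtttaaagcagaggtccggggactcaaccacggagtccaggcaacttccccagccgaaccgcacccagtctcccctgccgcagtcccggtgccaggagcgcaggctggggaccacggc
The Csf2ra window held 2 adjoining matches that ended 2 bases before the RefSeq start, and the Flt3 window held 0. The GENCODE start of Csf2ra, at base 61228429, falls inside its window, so part of the matches lies within the gene as GENCODE draws it. Of the 5 genes with a RefSeq window (Csf1, Csf2ra, Csf2rb2, Csf3r and Flt3), 3 held the motif, against 23.3% of 32851 mouse promoters. A match describes the letters and not a bound site.

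To learn which cells carried each receptor, classes were compared within mice. Csf1r was a gene of monocytes and macrophages. Its level in monocytes was 342.7 and 374.7 CPM in the parental mice, 376.1, 366.7 and 393.9 CPM in the E0771-Res1 mice and 293.3, 290.7 and 290.9 CPM in the E0771-Res2 mice. In macrophages it was 292.1 and 246.2, then 334.8, 332.1 and 335.2, then 268.9, 286.6 and 264.3 CPM in the same order. Monocytes exceeded macrophages in 8 of 8 mice, although the ranges over mice overlapped. The difference was small, with macrophages lower by a log2 fold change of -0.31 ± 0.09 (SE; adjusted p = 0.00416, edgeR quasi-likelihood test with the mouse as a block, n = 8 mice), and DESeq2 gave -0.33 with adjusted p = 0.0819. Dendritic cells held 67.5 to 146.5 CPM, below macrophages in every mouse, and were lower than monocytes by -1.89 ± 0.12 (adjusted p = 6.0e-16). Lymphoid cells held 12.9 to 71.3 CPM.

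As a share of cells, 74.1% of monocytes and 80.9% of macrophages had a Csf1r UMI, against 12.1% of lymphoid cells, which are not known to use the receptor and serve as the background share. The lymphoid gate admitted at most 2 UMIs of 5 myeloid genes, so cells with more stray myeloid RNA were left out. The background share can therefore be too low. The source of the lymphoid UMIs was not tested. Median depth was 7006.5, 9384.5 and 5715.5 UMIs per cell in these classes. After thinning each cell to 2500 UMIs the shares were 46.3%, 42.3% and 5.43%. The higher share of macrophages before thinning thus went with their depth, and the order of the CPM levels, monocytes above macrophages, matched the order of the thinned shares.

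The GM-CSF receptor chains did not follow each other across the classes. Csf2ra, the ligand-binding chain, was at 309.8 to 478.3 CPM in monocytes, 249.8 to 343.1 CPM in macrophages, 184.5 to 292.6 CPM in dendritic cells and 21.5 to 79.2 CPM in lymphoid cells. It fell from monocytes to macrophages in 8 of 8 mice (log2 fold change -0.47 ± 0.07, adjusted p = 1.5e-06) and was lower in dendritic cells than in macrophages in 7 of 8. Csf2rb, the signalling chain, ran in another order. It was highest in dendritic cells in 8 of 8 mice, at 171.9 and 165.5 CPM in the parental, 252.4, 170.1 and 178.6 CPM in the E0771-Res1 and 129.9, 150.3 and 105.7 CPM in the E0771-Res2 mice. Monocytes held 78.3 to 159.5 CPM and macrophages 57.0 to 109.3 CPM, and the ranges of neighboring classes overlapped. Dendritic cells were above monocytes by 0.40 ± 0.10 (adjusted p = 8.26e-04) and macrophages below them by -0.76 ± 0.09 (adjusted p = 3.66e-09).

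Csf2rb2, the IL-3 receptor paralog, was far less abundant in UMIs than its neighbor, with 558 UMIs over all monocytes against 2822 of Csf2rb. It reached 18.9 to 50.9 CPM in dendritic cells, 12.9 to 31.3 CPM in monocytes, 16.1 to 32.7 CPM in macrophages and 0 to 9.57 CPM in lymphoid cells. Dendritic cells were above monocytes by 0.62 ± 0.16 (adjusted p = 0.00172), in 6 of 8 mice. The difference of macrophages from monocytes, -0.19 ± 0.13, did not pass (adjusted p = 0.217).

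Csf3r, known as the receptor of neutrophils, was read in monocytes and macrophages of every mouse. Monocyte levels were 100.1 and 96.4 CPM in the parental mice, 91.3, 83.0 and 102.5 CPM in the E0771-Res1 mice and 116.6, 99.3 and 100.6 CPM in the E0771-Res2 mice, with the groups overlapping. Macrophages held 58.0 to 86.6 CPM and were lower in 8 of 8 mice (-0.60 ± 0.09, adjusted p = 8.55e-07). Dendritic cells at 8.19 to 33.1 CPM and lymphoid cells at 0 to 28.5 CPM formed the low end, overlapping each other. A Csf3r UMI was found in 39.7% of monocytes and 3.97% of lymphoid cells, or 19.0% and 2.21% after thinning. The monocyte share was thus above that of lymphoid cells, a background that their gate can have lowered. The 20 gated neutrophils held 62 UMIs, or 721 CPM (exact 95% Poisson interval 553 to 925 CPM), and 80.0% of them were positive (exact binomial interval 56.3 to 94.3%). These intervals cover counting error only. The paper describes a high dropout of neutrophils in single-cell data, and cells under 500 genes were not kept here. The number of gated neutrophils is therefore not a measure of their abundance.

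Flt3 stood apart as the member of dendritic cells. Its dendritic levels were 102.3 and 59.4 CPM in the parental mice, 72.7, 42.5 and 97.2 CPM in the E0771-Res1 mice and 95.8, 84.0 and 96.7 CPM in the E0771-Res2 mice. Monocytes held 0 to 3.83 CPM, macrophages 0.957 to 4.50 CPM and lymphoid cells 0 to 16.7 CPM, so the dendritic class did not overlap any other. The difference from monocytes was 5.23 ± 0.23 on the log2 scale, a 37.5-fold higher level (adjusted p = 1.1e-20). A Flt3 UMI was present in 39.6% of dendritic cells and 1.06% of monocytes, or 14.5% and 0.135% after thinning. Lymphoid cells were above monocytes by 1.28 ± 0.47 (adjusted p = 0.0155), a call that rested on 20 lymphoid UMIs and was lost without E0771 replicate 1 (adjusted p = 0.0652). In fits of monocytes or of lymphoid cells alone, Flt3 did not pass the count filter. It was tested here in a fit that also held the dendritic cells, so no conclusion on lymphoid Flt3 is drawn from this call.

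Csf1, the ligand, was highest in the class that held the least of its receptor. Lymphoid cells held 69.8 and 56.0 CPM in the parental mice, 37.7, 22.9 and 21.5 CPM in the E0771-Res1 mice and 20.8, 31.9 and 114.1 CPM in the E0771-Res2 mice. They were above the monocytes of the same mouse in 8 of 8 mice, and E0771-Res2 replicate 3 stood far above the other mice of its line. Monocytes held 10.3 to 18.8 CPM, macrophages 2.11 to 20.9 CPM and dendritic cells 2.13 to 14.2 CPM, and these 3 classes overlapped. Lymphoid cells were above monocytes by 1.19 ± 0.27 (adjusted p = 2.18e-04), macrophages below them by -1.28 ± 0.26 (adjusted p = 1.0e-04) and dendritic cells by -1.11 ± 0.40 (adjusted p = 0.0212). The dendritic call was lost without E0771-Res2 replicate 1 or 2 (adjusted p = 0.0502 and 0.0569).

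**Figure D1:**
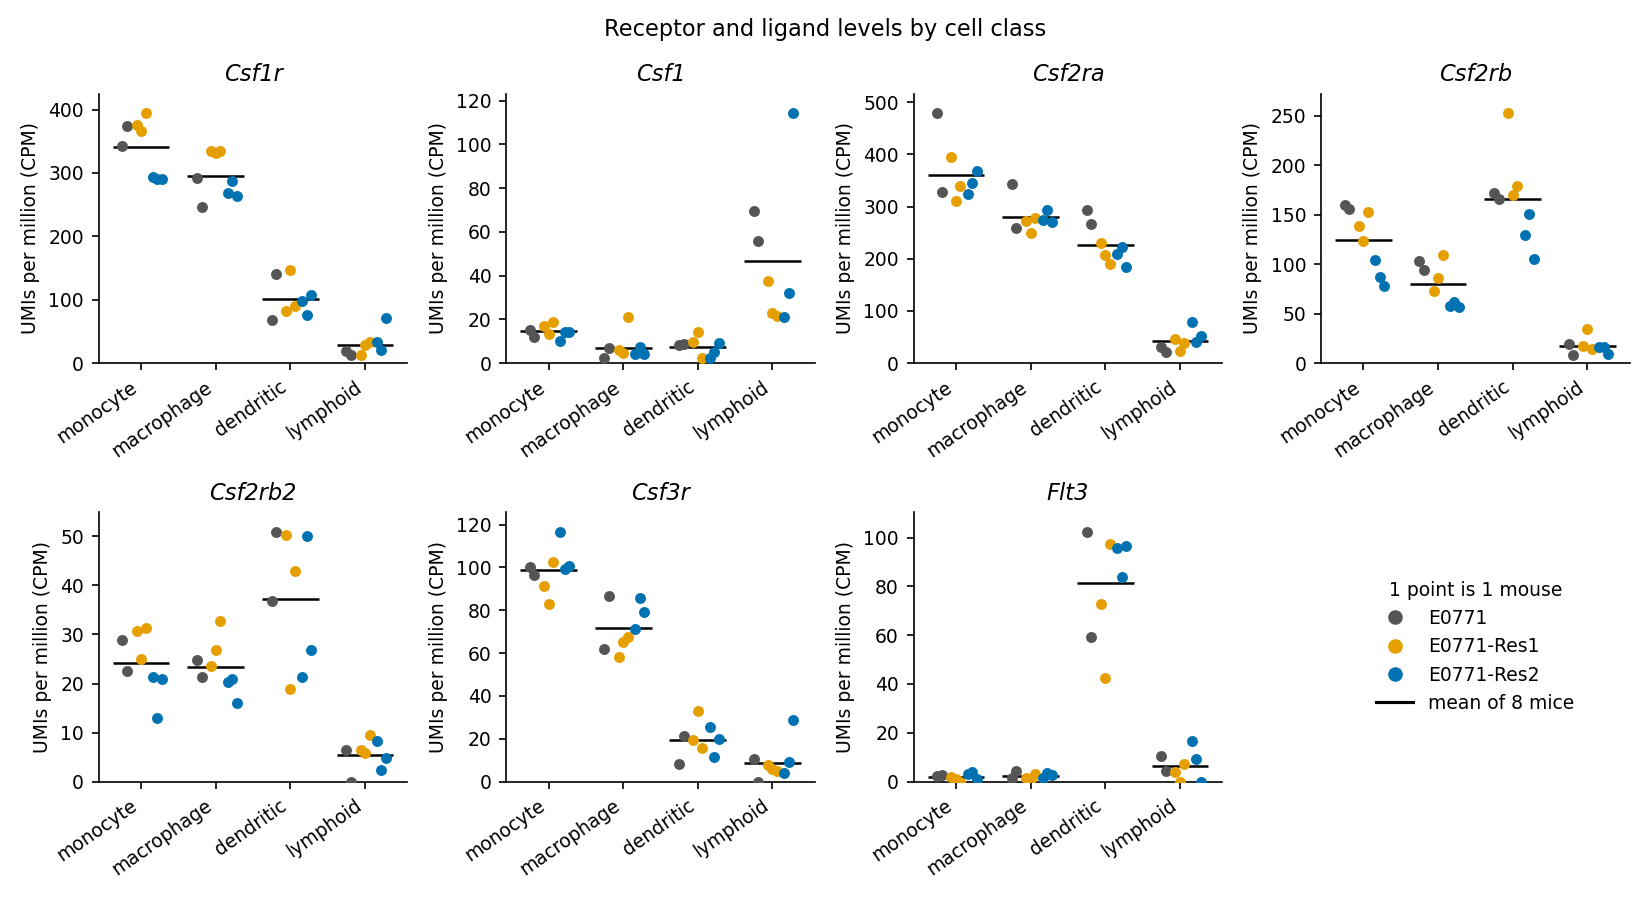
Level of each of the 7 genes (y axis, CPM of UMIs summed per mouse and class, linear from 0) in monocytes, macrophages, dendritic and lymphoid cells (x axis); each point is 1 mouse, colored by tumor line, and bars mark the mean of the mice. Flt3 is separated in dendritic cells (42.5 to 102.3 CPM, against at most 16.7 CPM in any other class), Csf2rb is highest in dendritic cells, and Csf1 is highest in lymphoid cells.

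Over all genes tested, classes differed widely, so the count of members called has to be read against a high background. Macrophages differed from monocytes in 5 of 7 members, all lower, where 49.1% of 9363 genes were called and 22.2% were lower. Dendritic cells differed from monocytes in 7 of 7 (3 higher, 4 lower), against 48.6% of genes. Lymphoid cells differed from monocytes in 7 of 7 (2 higher, 5 lower), against 69.9% of genes. The higher ones were Csf1 and Flt3, and the Flt3 call has the limits given above. How many of all genes held classes apart without overlap was not counted. The lymphoid gate admitted at most 2 UMIs of 5 myeloid genes, none of them a member.

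Within the dendritic class the members divided further. Mature dendritic cells, gated on Ccr7, Fscn1 and Cacnb3, held Flt3 at 133.6 and 68.3 CPM in the parental mice, 99.9, 65.1 and 128.7 CPM in the E0771-Res1 mice and 130.8, 123.9 and 110.3 CPM in the E0771-Res2 mice. Cd209a dendritic cells held 49.9 and 49.7, then 32.9, 11.4 and 14.03, then 47.7, 25.3 and 74.1 CPM. The mature cells were above the Cd209a cells of the same mouse in every mouse, and the ranges overlapped only at the highest Cd209a value. The log2 fold change was 1.72 ± 0.25 (adjusted p = 1.68e-05).

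Csf1r and Csf2ra ran the other way, from 149.4 ± 53.9 CPM (SD, n = 8 mice) in Cd209a cells to 72.2 ± 43.2 CPM in mature cells for Csf1r (log2 fold change -0.98 ± 0.26, adjusted p = 0.00532), and from 339.5 ± 59.9 to 162.2 ± 25.5 CPM for Csf2ra (-0.90 ± 0.13, adjusted p = 1.61e-05). Csf2ra did not overlap between these subsets, with 133.9 to 200.4 CPM in mature and 266.6 to 443.5 CPM in Cd209a cells. How many of all genes were held apart in this way was not counted. Csf2rb at 163.4 and 161.9 CPM differed by 0.18 ± 0.20 (adjusted p = 0.499), unlike Csf2ra, its partner chain, although the difference between these genes was not itself tested. In all, 3 of 5 tested members were called, against 43.8% of genes. The gate for cDC1 cells held 21 cells and that for plasmacytoid dendritic cells 17, too few to test. Flt3 reached 34 UMIs, or 127 CPM, in cDC1 cells, and Csf2rb2 reached 28 UMIs, or 181 CPM, in plasmacytoid cells, of which 58.8% were positive.

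Monocyte subsets differed less. Nonclassical monocytes, gated on Ace and Treml4, held Csf1r at 488.6 to 588.5 CPM, above the 243.3 to 391.6 CPM of the other monocytes in every mouse. They were drawn from cells that had first passed a monocyte gate on Ly6c2, Vcan, F13a1 and Ccr2. Nonclassical cells low in those genes were therefore left out. How many of all genes separated these subsets was not counted. Early monocytes high in Hp and Mgst1 held 280.2 to 401.2 CPM and overlapped the other monocytes. Their difference from the other monocytes was 0.24 ± 0.08 (adjusted p = 0.0118), and it did not pass after thinning to 2500 UMIs (adjusted p = 0.190), without E0771-Res2 replicate 3 (adjusted p = 0.0547) or without the mouse as a block (adjusted p = 0.0630). Csf2rb was higher in the early monocytes by 0.50 ± 0.09 (adjusted p = 3.13e-05), at 148.5 ± 43.5 against 109.8 ± 25.0 CPM (SD, n = 8 mice). Csf3r, the granulocyte receptor, was not called there (-0.11 ± 0.08, adjusted p = 0.312). These were 2 of 6 tested members, against 41.7% of genes.

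Among macrophages, cells with a Trem2 UMI after thinning were not called different from the rest in any of 6 tested members by edgeR or DESeq2. There edgeR called 6.89% of genes. An unadjusted p under 0.05 was found for 2 members, and for 18.3% of genes. Trem2 was read in 21.8 to 48.0% of the macrophages of a mouse at this depth. The rest can therefore hold cells whose Trem2 was missed, which limits this comparison. Csf1r differed by -0.03 ± 0.06 (adjusted p = 0.875), and the members with an unadjusted p under 0.05 were Csf3r at -0.24 ± 0.09 (adjusted p = 0.121) and Csf2ra at -0.17 ± 0.06 (adjusted p = 0.114).

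Among lymphoid cells, Csf1 was a transcript of T cells. T cell levels were 82.0 and 70.9 CPM in the parental mice, 49.9, 30.4 and 29.1 CPM in the E0771-Res1 mice and 22.3, 53.5 and 168.3 CPM in the E0771-Res2 mice, against 0 to 20.8 CPM in NK cells. T cells did not overlap NK cells, and E0771-Res2 replicate 3 was again the highest mouse. The number of genes that separated T from NK cells in this way was not counted. In this comparison, which was added after the values had been seen, T cells were above NK cells by 2.79 ± 0.54 (adjusted p = 9.24e-04, 13.1% of genes called), and Csf1 was the only member that passed the count filter. A Csf1 UMI was found in 18.8% of 393 T cells and 4.14% of 145 NK cells. Neutrophils held 47 Csf1 UMIs in 20 cells, or 547 CPM, but 36 of these UMIs came from E0771-Res1 replicate 2.

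**Figure D2:**
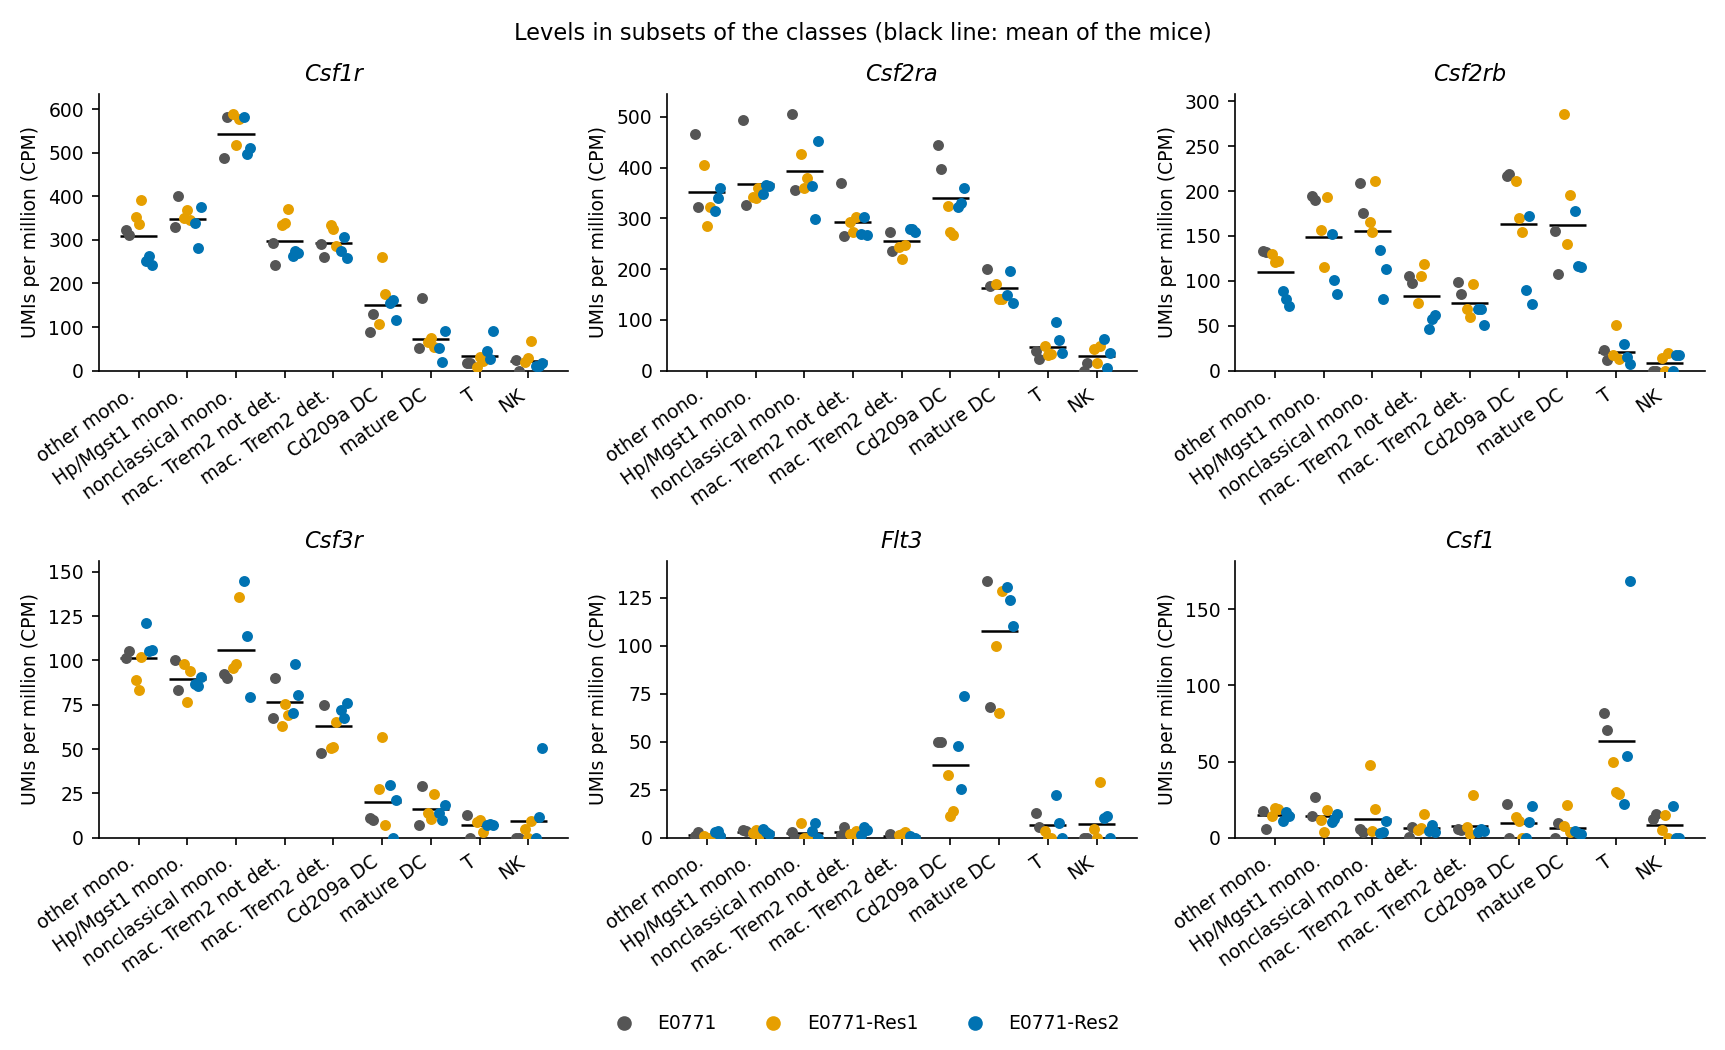
Level of the members (y axis, CPM of UMIs summed per mouse and subset, linear from 0) in subsets of monocytes, macrophages, dendritic cells and lymphoid cells (x axis); each point is 1 mouse with at least 10 cells of the subset, colored by tumor line, and bars mark the mean. Nonclassical monocytes lead in Csf1r, mature dendritic cells in Flt3, Cd209a dendritic cells exceed mature ones in Csf2ra, and T cells exceed NK cells in Csf1.

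Other ligands of these receptors were close to absent from the sorted cells. All 10605 cells held 86 UMIs of Csf2, the GM-CSF gene, of which 30 were in T cells, and 31 UMIs of Csf3, the G-CSF gene, of which 15 were in 1 neutrophil. Il34, the other Csf1r ligand, had 29 UMIs, and Il3 and Il5 had 1 UMI each. Tumor cells were not sorted, so their ligands were not read. Flt3l was the ligand with counts enough to test between classes, and lymphoid cells exceeded monocytes by 1.66 ± 0.22 (adjusted p = 2.21e-08), with 57 UMIs in T cells and 38 in NK cells. Of 7 ligands listed besides Csf1, with Kitl among them, 3 were tested between tumor lines over all cells and 0 were called. Of the related receptors, Kit was above its monocyte level by 4.15 ± 0.46 in dendritic cells (adjusted p = 1.3e-09) and by 4.32 ± 0.46 in lymphoid cells (adjusted p = 1.78e-10).

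Of 18 tested genes of the list of Csf1r signalling partners, 8 were lower and 2 higher in macrophages than in monocytes (median log2 fold change -0.20), 12 lower and 2 higher in dendritic cells (-0.81) and 16 lower and 1 higher in lymphoid cells (-1.07). Over all genes tested, 22.2% were lower and 26.8% higher in macrophages (median 0.05), 23.4% and 25.2% in dendritic cells (0.02) and 31.8% and 38.2% in lymphoid cells (0.11), and the counts of the following lists stand against the same shares. Fgr, a Src-family kinase gene, was at -0.80 ± 0.09 in macrophages (adjusted p = 5.07e-09). The ubiquitin ligase gene Cblb was among the 2 that were higher in dendritic cells, at 2.09 ± 0.13 (adjusted p = 1.12e-16).

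The Jak-Stat5 list held 14 tested genes. In macrophages 8 were lower and 1 higher than in monocytes (median -0.49), among them Jak2, the kinase of Csf2rb, at -1.02 ± 0.10 (adjusted p = 1.52e-10), and Cish, a Stat5 target and feedback inhibitor, at -0.88 ± 0.17 (adjusted p = 5.09e-05). In dendritic cells 5 were higher and 3 lower (median 0.36), led by Socs2 at 5.44 ± 0.21 (adjusted p = 6.5e-22), Stat5a at 1.46 ± 0.17 (adjusted p = 3.4e-09) and Jak2 at 1.30 ± 0.10 (adjusted p = 2.07e-13). Jak2 and Csf2rb therefore had the same order of classes, dendritic cells, monocytes, macrophages, in these tests. In lymphoid cells 8 were higher and 4 lower (median 0.61). Of 12 tested lineage factors, 6 were higher and 6 lower in dendritic cells (median 0.07), with Zbtb46, the conventional dendritic factor, at 4.62 ± 0.28 (adjusted p = 1.77e-16). In lymphoid cells 5 were higher and 7 lower (median -1.63), with Spi1, which encodes PU.1, at -4.09 ± 0.13 (adjusted p = 9.18e-26). In macrophages 5 were lower and 1 higher (median -0.41).

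Receptor transcripts of the same cell were read together in a minority of cells at 2500 UMIs. Csf2ra and Csf2rb, which form the GM-CSF receptor, were both read in 10.8% of monocytes, 5.24% of macrophages, 9.26% of dendritic cells and 0.805% of lymphoid cells. Among Csf2rb-positive cells, Csf2ra was read in 53.4% of monocytes and 35.4% of dendritic cells, close to its share of 50.9% and 34.4% in all cells of these classes. Csf1r and Csf3r were both read in 9.13% of monocytes. Flt3 and Csf1r were both read in 0.714% of 280 mature and 2.41% of 166 Cd209a dendritic cells. At this depth a missing UMI does not show that a transcript was absent.

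Over the 32 profiles of 4 classes in 8 mice, which share mice, depth and class, the genes with the most similar pattern were ranked by Pearson r among 6238 genes. Csf1r was closest to Ms4a6d (r = 0.971), Slc15a3 (0.970) and Tpd52 (0.966). Csf2ra was closest to BC028528 (0.980), Spi1 (0.978) and Ifi207 (0.970). Csf2rb was closest to H2-DMa (0.962), Olfm1 (0.949) and Atox1 (0.947), and Csf2rb2 to Naaa (0.913), Synj1 (0.911) and H2-DMb1 (0.910), so each Csf2rb paralog had an H2-DM gene among its 3 nearest. Csf3r was closest to Soat1 (0.954), Zeb2 (0.952) and Cd180 (0.949). Csf1 and Flt3 were below the mean level set for this ranking.

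The tumor lines were then compared, with the mouse as the replicate. The contrast of both resistant lines with the parental line called 0 of the members in any class by edgeR, where it called 0.5% of genes in monocytes, 1% in macrophages, 0% in dendritic cells, 0.101% in lymphoid cells and 0.901% over all cells. At an unadjusted p under 0.05 there was 1 member each in monocytes, macrophages, dendritic cells (Csf2ra) and all cells, and 0 in lymphoid cells. The shares of all genes under that cut were 12.6%, 13%, 6.09%, 14.6% and 6.03% in the same order. The closest member was Csf2rb, lower in all 6 resistant mice than in both parental mice in monocytes, as were 6.61% of genes, at -0.49 ± 0.11 in monocytes (adjusted p = 0.06004), -0.49 ± 0.15 in macrophages (adjusted p = 0.165) and -0.42 ± 0.09 over all cells (adjusted p = 0.0511). DESeq2 called it in monocytes (adjusted p = 0.0241) and over all cells (adjusted p = 0.0153), and leaving out E0771-Res1 replicate 3 let it pass in edgeR in monocytes (adjusted p = 0.0284), macrophages (adjusted p = 0.00972) and over all cells (adjusted p = 0.0203). In dendritic cells its difference was -0.02 ± 0.21 (adjusted p = 0.999).

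The resistant lines differed from each other, and Csf2rb had the largest change among the members called. In monocytes it was at 159.5 and 155.4 CPM in the parental mice, 138.3, 123.2 and 152.6 CPM in the E0771-Res1 mice and 104.4, 87.1 and 78.3 CPM in the E0771-Res2 mice. The E0771-Res2 mice lay below every other mouse, whereas E0771-Res1 lay close under the parental mice. How many of all genes put the E0771-Res2 mice below the others was not counted, here or for the genes below. E0771-Res2 was below E0771-Res1 by -0.62 ± 0.11, a ratio of 0.650 (adjusted p = 0.00738). Over all cells the levels were 128.2 and 125.2, then 106.0, 117.0 and 127.3, then 81.1, 80.0 and 72.7 CPM, and the difference was -0.59 ± 0.09 (adjusted p = 0.00457). In macrophages Csf2rb was at 103.7 and 94.4, then 72.6, 86.1 and 109.3, then 57.9, 61.9 and 57.0 CPM. There too the E0771-Res2 mice lay below the rest, but the difference of -0.56 ± 0.15 did not pass (adjusted p = 0.0554). In dendritic cells it was -0.68 ± 0.20 (adjusted p = 0.419), where 0.048% of genes were called.

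Against the parental mice, which both resistant lines share as controls, Csf2rb of E0771-Res2 was lower by -0.80 ± 0.13 in monocytes (adjusted p = 0.00420), -0.77 ± 0.17 in macrophages (adjusted p = 0.0301) and -0.71 ± 0.10 over all cells (adjusted p = 0.00294). That contrast called 4.02%, 1.92% and 4.37% of genes. The corresponding values of E0771-Res1 were -0.18 ± 0.12, -0.21 ± 0.17 and -0.12 ± 0.10, none past the threshold, where 0%, 0.044% and 0.0353% of genes were called. Without E0771 replicate 1, the E0771-Res2 difference did not pass in monocytes (adjusted p = 0.0690), macrophages (adjusted p = 0.207) or over all cells (adjusted p = 0.0539). Over all cells it also did not pass without E0771 replicate 3 (adjusted p = 0.0522). In macrophages it passed in 3 of 8 fits that left out 1 mouse, and was lost as well without E0771 replicate 3 (adjusted p = 0.166) or E0771-Res2 replicate 1, 2 or 3 (adjusted p = 0.0958, 0.0662 and 0.0997).

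Csf1r was the other member that differed between the resistant lines. Its monocyte levels, given above, put the E0771-Res2 mice at 290.7 to 293.3 CPM, below the 366.7 to 393.9 CPM of E0771-Res1 and the parental mice at 342.7 and 374.7 CPM. The difference was -0.38 ± 0.09, a ratio of 0.766 (adjusted p = 0.0187), and over all cells -0.31 ± 0.07 (adjusted p = 0.0389). The macrophage difference of -0.29 ± 0.09 did not pass (adjusted p = 0.106). Leaving out E0771-Res1 replicate 3, E0771-Res2 replicate 1 or E0771-Res2 replicate 3 took the monocyte call away (adjusted p = 0.0744, 0.0681 and 0.0767), with the size kept between -0.39 and -0.35, and so did thinning (adjusted p = 0.0732). Over all cells the call was lost on leaving out any 1 mouse other than E0771-Res1 replicate 1 (adjusted p = 0.0617 to 0.154) and after thinning (adjusted p = 0.186). Against the parental mice, Csf1r passed in neither resistant line. For E0771-Res2 it was at -0.29 ± 0.09 in monocytes (adjusted p = 0.109), 0.0023 ± 0.10 in macrophages (adjusted p = 0.999) and -0.20 ± 0.08 over all cells (adjusted p = 0.184). The corresponding values of E0771-Res1 were 0.09 ± 0.10, 0.29 ± 0.10 and 0.10 ± 0.08 (adjusted p = 0.865, 0.264 and 0.746).

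Thus 2 of 6 tested members were called between the resistant lines in monocytes, both lower in E0771-Res2, where 3.4% of genes were called and 1.52% were lower. In macrophages 0 of 6 were called by edgeR or DESeq2, against 2.75% of genes by edgeR, and over all cells 2 of 7, against 4.2%. At an unadjusted p under 0.05 there were 4 members in macrophages, where 16% of genes were under that cut. The remaining monocyte members were Csf2rb2 at -0.66 ± 0.19 (adjusted p = 0.0688), Csf1 at -0.37 ± 0.20 (adjusted p = 0.386), Csf3r at 0.19 ± 0.11 (adjusted p = 0.408) and Csf2ra at -0.02 ± 0.12 (adjusted p = 0.968). Csf2ra, the partner of Csf2rb, thus had an estimate near 0, although a change of the size of its error cannot be told from none. Flt3 in dendritic cells differed by 0.30 ± 0.26 (adjusted p = 0.939), and Csf1 in lymphoid cells by 0.77 ± 0.46 with overlapping lines, where 0.0169% of genes were called.

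**Figure D3:**
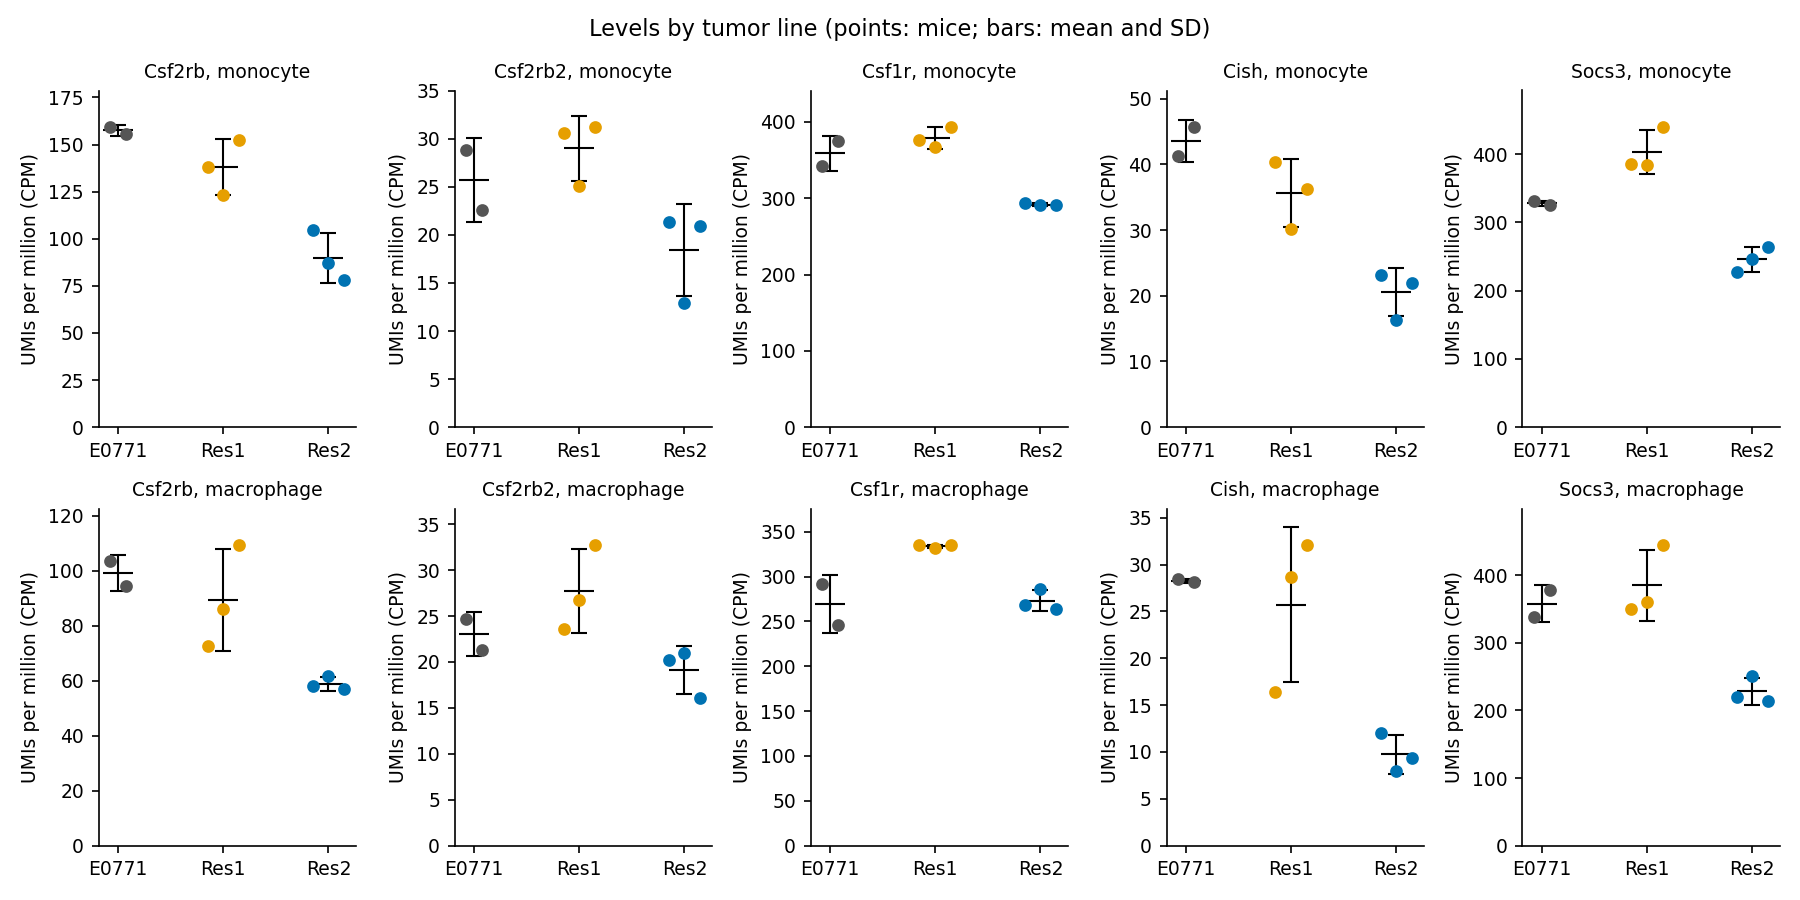
Level of Csf2rb, Csf2rb2, Csf1r, Cish and Socs3 (y axis, CPM of UMIs summed per mouse, linear from 0) by tumor line (x axis) in monocytes and macrophages; points are mice and bars the mean ± SD (parental n = 2, E0771-Res1 n = 3, E0771-Res2 n = 3). Csf2rb in E0771-Res2 monocytes lies at 78.3 to 104.4 CPM and in E0771-Res2 macrophages at 57.0 to 61.9 CPM. Both are below all other mice, an order that was not counted over all genes.

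**Figure D4:**
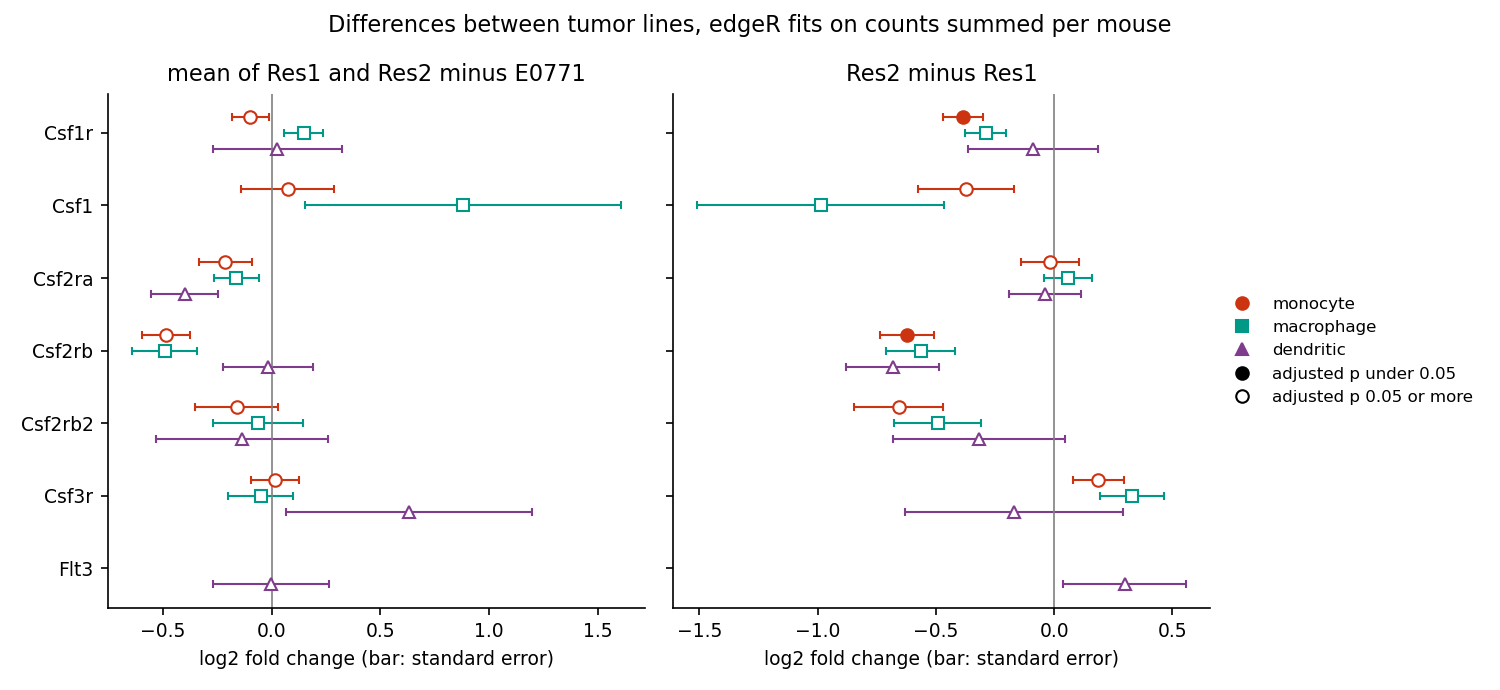
Log2 fold change with its standard error (x axis) of each tested member (y axis) in the contrasts of tumor lines, by class; points to the left of 0 are lower in the line named before the word minus, and filled symbols passed the threshold. Csf2rb lies left of 0 in monocytes, macrophages and dendritic cells for E0771-Res2 minus E0771-Res1.

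These differences were also read within the monocyte subsets. Within the other monocytes, which exclude the nonclassical and the Hp and Mgst1 high cells, E0771-Res2 was below E0771-Res1 by -0.63 for Csf2rb (adjusted p = 0.00229) and by -0.52 for Csf1r (adjusted p = 0.00275). Within the Hp and Mgst1 high monocytes the values were -0.45 (adjusted p = 0.486) and -0.07 (adjusted p = 0.934). This early subset held 71 to 156 cells per resistant mouse, and its fit called 37 genes against 319 in all monocytes. Whether the subsets differed in these values was not tested. Csf1r in those early cells was at 338.5, 280.2 and 375.9 CPM in the E0771-Res2 mice and 350.6, 367.4 and 346.5 CPM in the E0771-Res1 mice, which overlapped. The early cells made up 16.8, 28.5 and 15.3% of monocytes in the E0771-Res2 mice, 17.7, 26.8 and 30.2% in the E0771-Res1 mice and 27.7 and 30.5% in the parental mice. Within macrophages with Trem2 detected, Csf2rb differed by -0.22 (adjusted p = 0.700).

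Of 13 tested genes of the Jak-Stat5 list, 3 were lower and 0 higher in E0771-Res2 than in E0771-Res1 monocytes (median -0.13), where 1.52% of all genes were lower and 1.87% higher (median 0.0022). Cish, the Stat5 target, was at 41.3 and 45.7 CPM in the parental, 40.4, 30.1 and 36.3 CPM in the E0771-Res1 and 23.2, 16.4 and 21.9 CPM in the E0771-Res2 mice, and fell by 0.81 ± 0.16 on the log2 scale (adjusted p = 0.00982). Socs3, a feedback inhibitor of Jak signalling, was at 330.6 and 325.1, then 385.2, 383.4 and 440.2, then 227.8, 246.1 and 264.4 CPM (-0.72 ± 0.09, adjusted p = 6.67e-04). For both genes the E0771-Res2 mice lay below every other mouse, an order that was not counted over all genes. Socs2, another feedback inhibitor, fell by 1.37 ± 0.33 (adjusted p = 0.0303) from levels of 8.3 to 9.8 CPM in E0771-Res1.

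In macrophages 2 of 13 genes of that list were lower and 1 higher (median -0.16), where 1.29% of all genes were lower and 1.46% higher (median -0.0081). Cish was at 12.02, 7.9 and 9.3 CPM in E0771-Res2 against 16.4, 28.7 and 32.1 CPM in E0771-Res1 (-1.20 ± 0.28, adjusted p = 0.0347), and Socs3 differed by -0.75 ± 0.11 (adjusted p = 0.00281). Bcl2l1, an anti-apoptotic gene, was higher by 0.47 ± 0.12 (adjusted p = 0.0457). Of the Csf1r signalling list, 1 of 18 genes was lower in E0771-Res2 monocytes, the adaptor gene Dok2 (-0.88 ± 0.12, adjusted p = 6.67e-04), and in macrophages Dok2 was lower (-0.66 ± 0.13, adjusted p = 0.0115) and Cblb higher (0.74 ± 0.17, adjusted p = 0.0358). Between resistant and parental mice, these lists had 1 called gene each in monocytes (Id2, 0.68 ± 0.11, adjusted p = 0.0171), macrophages (Fgr, -0.51 ± 0.10, adjusted p = 0.0406) and all cells (Stat3, -0.43 ± 0.08, adjusted p = 0.0320).

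Other measures moved with E0771-Res2 in monocytes, and their part in the Csf2rb and Csf1r values was not tested. Median depth was 5589 to 6799 UMIs in its monocytes against 7168.5 to 8094 UMIs in the other mice. Thinned to 2500 UMIs per cell, Csf2rb was still lower, with 15.6% ± 1.42 positive monocytes in E0771-Res2 (SD, n = 3), 22.8% ± 3.1 in E0771-Res1 (n = 3) and 25.9% ± 0.570 in the parental mice (n = 2). The gates were set on raw UMIs, so thinning did not equalize the depth at which cells were chosen as monocytes. Unassigned cells were 23.7 to 26.8% of kept cells in E0771-Res2 mice and 17.6 to 19.5% in the others. Cells between monocyte and macrophage were 10.6 to 14.02% against 6.33 to 8.77%. Nonclassical cells, as gated here, were 7.03 to 7.42% of monocytes in E0771-Res2, 7.87 to 10.57% in E0771-Res1 and 10.1 and 11.03% in parental mice. The fit within the other monocytes, given above, left nonclassical cells out. The summed level of 6 dendritic markers was 4479 to 5955 CPM in E0771-Res2 monocytes, 7155 to 13031 CPM in E0771-Res1 and 9144 to 9710 CPM in parental monocytes. In that list the MHC class II genes Cd74 and H2-Ab1 and Clec10a were lower in all E0771-Res2 mice, whereas Zbtb46, Ccl22 and Itgae were near 0, at no more than 3.51 CPM, and overlapped. How many of all genes separated the E0771-Res2 mice from the E0771-Res1 mice in either direction was not counted, here or for the markers below.

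Of 7 lymphoid markers, Cd4 and Il7r were higher in all E0771-Res2 monocyte profiles than in E0771-Res1, and the other 5 overlapped. The summed level was 234 to 370 CPM against 141 to 192 CPM in E0771-Res1. Il7r, higher in the monocyte class than in the lymphoid class when pooled over mice, was at 132 to 259 CPM against 74.2 to 85.3 CPM. Of 5 neutrophil markers, Il1r2 was lower, at 37.0 to 55.0 CPM against 99.2 to 117 CPM, and the other 4 overlapped. The summed level was 46.7 to 62.9 CPM against 117 to 136 CPM, with Mmp9 at 0 in some mice of each line. Of 5 macrophage markers, C1qb and C1qc were higher and Mrc1 lower, and the summed level was 2283 to 2574 CPM in E0771-Res2 against 2180 to 2255 CPM in E0771-Res1.

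Measures also moved in E0771-Res2 macrophages, and their part in the macrophage values was not tested. Median depth was 6936.5 to 8804 UMIs against 10048 to 11469.5 UMIs in E0771-Res1. The summed level of the 6 dendritic markers was 6175 to 6529 CPM in E0771-Res2 against 9859 to 18273 CPM in E0771-Res1, where Cd74 and H2-Ab1 were lower in all E0771-Res2 mice and Zbtb46 and Itgae were at no more than 5.62 CPM in any mouse. That of the 7 lymphoid markers was 326 to 413 CPM against 144 to 230 CPM, with Cd4 and Il7r higher in all E0771-Res2 mice. Il7r, higher in the macrophage class than in the lymphoid class when pooled over mice, was at 220 to 296 CPM against 81.8 to 125 CPM. The other 5 lymphoid markers overlapped. The summed level of the 5 neutrophil markers was 24.4 to 32.9 CPM against 42.2 to 74.6 CPM. Il1r2 was lower, at 19.3 to 25.7 CPM against 34.7 to 73.3 CPM, S100a8 was higher, and G0s2 was at 0 in every E0771-Res2 mouse. The 4 monocyte markers overlapped between these lines one by one, at 762 to 973 CPM against 637 to 1310 CPM in sum.

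Shares of positive cells were also compared between resistant and parental mice, in a design that could hardly pass a threshold. With 8 mice in groups of 2 and 6, the two-sided exact permutation test over 28 splits cannot give a p below 0.0357. Of 28 tests of thinned shares, the differences of Csf2ra, Csf2rb and Csf2rb2 in macrophages, -5.92, -7.55 and -2.97 percentage points, and of Csf2ra in dendritic cells, -11.1 points, reached that smallest exact p (adjusted p = 0.25). For Csf2rb in macrophages, for example, the shares were 7.78 to 15.3% in resistant against 16.3 to 22.8% in parental mice. How many of all genes had thinned shares in this order was not counted. By CPM, all resistant mice lay below the parental mice for 6.78% of 9095 genes in macrophages and 5.17% of 6244 in dendritic cells.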

How the data were processed

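CD45+ cells of each mouse were tagged with oligonucleotides, pooled and read in 3′ droplet libraries. The deposited values were raw UMI counts per gene and cell, which the authors made with Cell Ranger 6.1.2 on mm10, 1 filtered table per mouse. They also used Seurat, whose output is not used here. Following the study's methods, a cell was retained if it had 500 to 6000 genes and less than 10% of its counts in mitochondrial genes, and 8636 mitochondrial, ribosomal protein and Gm-prefixed genes were dropped.

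Gates on raw UMIs of marker genes set the classes; gates and gene lists were written without the 7 genes, but the members and lists were chosen with earlier results of these data known. Counts were summed per mouse and class (at least 10 cells) and tested with edgeR 4.0.16 in R 4.3.3 (TMM, filterByExpr, quasi-likelihood test, Benjamini-Hochberg over all genes tested, threshold 0.05): classes with the mouse as a block, tumor lines in 1 fit of 3 groups. Levels are CPM of the genes left in. Shares were also read after thinning cells to 2500 UMIs. Mice are the replicates; same-numbered mice of different lines did not deviate together (correlations -0.23 to 0.11, over 0.1 in 1 of 28 pairs), so numbers were not taken as pairs. Replicates differed by more than sampling noise (chi-square per degree of freedom 2.66 to 12.4). The top tag took 96.9 to 99.9% of the cells of a mouse. Scrublet in scanpy 1.11.5 called 52 cells (0.455%), too few to serve as a doublet caller, so none were removed and leaving out the top 5% of scores was an alternative. On simulated counts, the tests recovered 98.5% of 200 genes given a log2 change of 1 between macrophages and monocytes (9363 genes) and 38% between resistant and parental macrophages (9095 genes). The other alternatives were DESeq2 1.42.0, RLE size factors, no count filter, all deposited cells, other C1qa limits, thinning, leaving out each mouse, and the replicate number as a block. The named genes were the 7 members, from each list and comparison up to 3 called genes with the largest change, and the 3 genes most like each member with a mean log2 CPM of at least 4. Some genes that this rule names are not reported here.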

Additional observations from a re-analysis of the deposited data

Results flagged for a closer look

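The resistant lines of the same origin gave unlike values, which the test of E0771-Res2 minus E0771-Res1 shows directly. Csf2rb differed by -0.62 on the log2 scale in monocytes and by -0.59 over all cells. Csf1r differed by -0.38 in monocytes and by -0.31 over all cells. Csf2rb remained past the threshold over all cells in 18 of 18 alternatives and in monocytes in 19 of 20, the exception being the Hp and Mgst1 high subset. Csf1r remained past it in 10 of 18 and 15 of 20. The cause of the difference between the lines was not tested.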

How the results depend on the processing

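Of 25 member calls between classes or subsets, 21 held under every alternative in which the gene was tested. Not every gene was tested in all of them: Csf1 of T minus NK cells was tested in 13. Of 7 calls between tumor lines 1 did, Csf2rb of E0771-Res2 minus E0771-Res1 over all cells, and 0 of these calls reversed. The fits within subsets were added after seeing the data, and the cause of the changes below was not tested.

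The number of members called for resistant minus parental was 0. It became 1, Csf2rb, in monocytes and over all cells with DESeq2, in monocytes, macrophages and all cells without a count filter, and over all cells with all deposited cells, and ranged from 0 to 1 on leaving out mice in each of these classes. For E0771-Res2 minus E0771-Res1 the count of 2 in monocytes became 1 after thinning and 0 within Hp and Mgst1 high cells (1 to 2 leaving out mice), the count over all cells ranged from 1 to 3, and that of 0 in macrophages became 1 without a count filter and with C1qa of at least 5 (0 to 1 leaving out mice). The mature dendritic count fell from 3 to 1 after thinning, where Csf1r and Flt3 were not tested. Both were past the threshold in 17 of the 17 alternatives that tested them. The early monocyte count fell from 2 to 1 after thinning or without the mouse as a block (1 to 3 leaving out mice).

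Sign changes were in values that were not called. Csf1r by Trem2 was 0.00102 with C1qa of at least 20 and -0.0562 to 0.0151 leaving out mice. For E0771-Res2 minus E0771-Res1 in monocytes, Csf2ra was 0.0490 after thinning, 0.0823 within Hp and Mgst1 high cells and -0.0753 to 0.0641 leaving out mice, and Csf1 and Csf3r were 0.0705 and -0.0204 within those cells. Csf2rb for resistant minus parental in dendritic cells was 0.0487 with C1qa of at least 20 and -0.146 to 0.0371 leaving out mice. Among 24 further uncalled member values, of which the text gives only that of Csf2ra by Trem2, 13 changed sign under some alternative and 1 was newly called.

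With the replicate number as a replicate block, the macrophage count for E0771-Res2 minus E0771-Res1 rose from 0 to 1, since Csf2rb passed (-0.57, adjusted p = 0.0443), and Csf2rb2 passed in monocytes (-0.64, adjusted p = 0.0410). The numbers did not pair the mice. Counts over all genes called moved by more than 1.5 times. For resistant minus parental they were 47 in monocytes (0 without E0771 replicate 1 to 349 without a count filter), 91 in macrophages (4 to 440) and 102 over all cells (0 to 503). For E0771-Res2 minus E0771-Res1 they were 319 in monocytes (37 to 639), 250 in macrophages (87 to 608) and 476 over all cells (104 to 928). By Trem2 the count was 572, but 27 without the mouse as a block, and thinning lowered that of macrophages minus monocytes from 4594 to 2257, that of dendritic from 4553 to 2326 and that of lymphoid cells from 6548 to 3481. Depth and 2 parental mice limit the contrasts with the parental line.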

Other observations

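T cells with a Foxp3 UMI held 79.4 CPM of Csf1 and T cells with a Cd8a or Cd8b1 UMI 62.2 CPM, pooled over mice, in a split made after the values had been seen. E0771-Res2 replicate 3 gave 19 of the Csf1 UMIs in its 11 Foxp3 cells (387 CPM), against 0 to 11 UMIs in each other mouse, so the pooled Foxp3 value rested largely on that mouse. No test was run on this split.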
